A study of Homo sapiens with 9 samples.

Results

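The expression of 9 enzymes that consume or rebuild tryptophan, arginine and the aromatic amino acids was followed across orthotopic tumors of TBP3743, a murine anaplastic thyroid cancer line. The enzymes were taken by symbol, from a list drawn up with earlier results of these data known. They were Ido1, Kynu, Kmo and Wars for tryptophan, Arg1, Arg2, Nos2 and Ass1 for arginine, and Il4i1 for phenylalanine, tyrosine and tryptophan. Of the 9, 8 had a row among the 17369 genes of the expression table, and 6 reached the level needed for testing. Il4i1 was not analysed here.

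RNA was sequenced from 9 tumors, 3 in each of 3 groups. The original/B6129SF1 tumors grew from unpassaged TBP3743 cells in B6129SF1 mice, the adapted/B6129SF1 tumors from adapted TBP3743 cells in B6129SF1 mice, and the adapted/C57BL/6 tumors from the same adapted cells in C57BL/6 mice. All hosts were 6-week-old female mice given 100000 cells in the thyroid, and the tumors were taken 14 days later. All groups share the origin of the line, a thyroid tumor of the B6129SF1 background with activated Braf and loss of Trp53. The adapted cells are 1 cell population, recovered after 3 rounds of passage through C57BL/6 mice, so the effect of adaptation rests on that population. C57BL/6 and B6129SF1 mice came from different suppliers, so host strain and supplier cannot be told apart, and no group had original cells in C57BL/6 mice. The labels name the organism as Homo sapiens, whereas the host strains, the mm10 build and the gene symbols are those of the mouse.

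Indoleamine 2,3-dioxygenase opens the tryptophan ring and starts the kynurenine pathway, and in myeloid cells it is known as an enzyme induced by interferon-gamma that starves T cells of tryptophan. Arginase and inducible nitric oxide synthase compete for arginine, the first giving ornithine and urea and the second nitric oxide and citrulline. High arginase is a familiar feature of tumor-associated macrophages and of myeloid-derived suppressor cells. Wars and Ass1 do not degrade amino acids: Wars loads tryptophan onto its tRNA, and Ass1 takes the first step in rebuilding arginine from citrulline. In bulk tumor RNA, fewer cells of a type and less RNA per cell cannot be told apart, and none of these enzymes is made by myeloid cells alone, so the values below are those of whole tumors.

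Levels are FPKM, fragments scaled by transcript length, which allows levels of different genes to be set side by side. Fold changes are differences of log2(FPKM + 1), a scale that understates the change of weakly expressed genes. A gene was called when limma gave an adjusted p under 0.05 (Benjamini-Hochberg over all 10263 genes tested) with an absolute log2 difference above 1. Against original/B6129SF1, 3.22% of all genes tested were called in adapted/B6129SF1 and 3.09% in adapted/C57BL/6. Every count of called genes in these comparisons stands beside those shares. Where a single value was tested alone, an exact two-sided permutation test was used, in which 3 tumors against 3 cannot go below p = 0.1. Nothing in the labels says more of the replicates than that they are separate biological ones. The comparisons of each adapted group with the original/B6129SF1 group share the 3 original/B6129SF1 tumors.

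The tumors also differed in transcripts of other cell types. Summed FPKM of 13 macrophage and monocyte markers ran from 2408 to 3180 in the original/B6129SF1 tumors, from 3324 to 4772 in the adapted/B6129SF1 tumors and from 2072 to 4012 in the adapted/C57BL/6 tumors. The same sum for 10 T and NK cell markers ran from 8.39 to 19.8, from 20 to 51.8 and from 56.5 to 86.2. Without Gzmb, a granule protease that lay at 28.7 to 46.8 FPKM in the adapted/C57BL/6 tumors and at most at 13.2 FPKM in the others, the sums ran from 5.16 to 8.56, from 11.1 to 40.1 and from 27.8 to 40.7, so that the adapted groups overlapped. Of the neutrophil markers, S100a8 lay between 4.15 and 21.1 FPKM, S100a9 between 1.55 and 22.8 FPKM and Csf3r between 1.54 and 5.22 FPKM, while Ly6g was listed at 0 in 8 of the 9 tumors. Of 9 dendritic cell markers 6 were tested and 1 rose in each adapted group, Clec9a, which marks conventional dendritic cells. It measured 0.416, 0.154 and 0.236 FPKM in the original/B6129SF1 tumors, 6.15, 3.46 and 2.75 FPKM in the adapted/B6129SF1 tumors and 2.99, 4.71 and 3.52 FPKM in the adapted/C57BL/6 tumors. Transcripts of 10 skeletal muscle genes made up 6.5% of the summed FPKM of adapted/B6129SF1 replicate 3, 1.21% of that of adapted/C57BL/6 replicate 1 and at most 0.148% of any other. The labelled cancer epithelial cell type was matched by Krt8 (153 to 615 FPKM in all tumors) and Nkx2-1 (23.5 to 44.5 FPKM). Krt8 averaged 510.1, 205.5 and 228 FPKM in the original/B6129SF1, adapted/B6129SF1 and adapted/C57BL/6 groups. It was called lower in adapted/B6129SF1 (log2 difference -1.32, limma adjusted p = 0.0189). The thyroid markers Tshr and Slc5a5 stayed at or under 0.142 FPKM and Epcam at or under 2.49 FPKM. Tg, another thyroid marker, differed widely within groups. In the same order it measured 0.0153, 30.2 and 12.2 FPKM, then 0.0431, 0.0382 and 1.20 FPKM, then 31.0, 11.3 and 0.358 FPKM.

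The levels of the 8 enzymes spanned more than 3 orders of magnitude. Arg1 averaged 368 FPKM over the 9 tumors, above 99.1% of the genes of the table. Wars followed at 41.0 FPKM and Ass1 at 8.16 FPKM. Nos2 averaged 2.95 FPKM, Arg2 0.829 FPKM, Ido1 0.783 FPKM, Kmo 0.657 FPKM and Kynu 0.132 FPKM. The enzymes of the kynurenine pathway were thus the weakest of the set, and the arginase and nitric oxide synthase transcripts stood far apart.

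**Figure D1:**
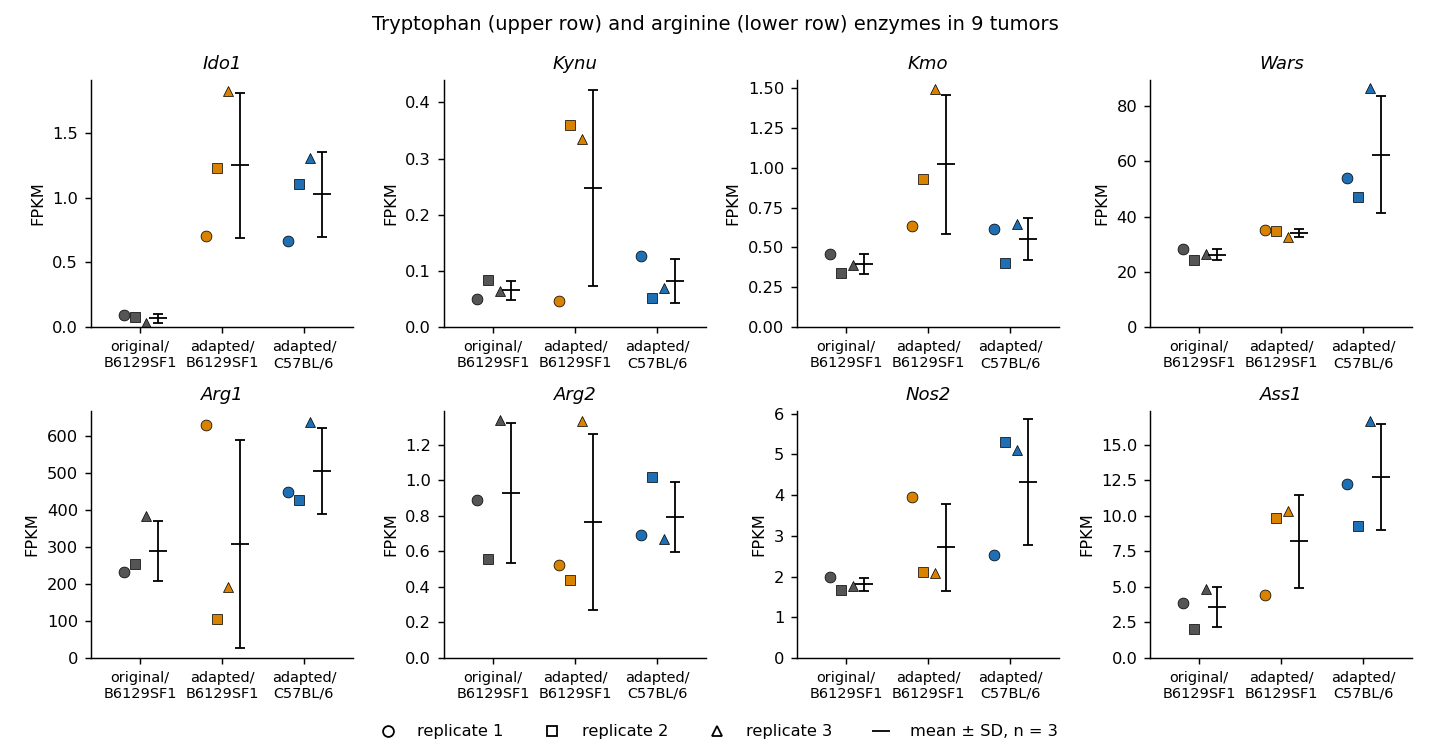
FPKM of each enzyme (vertical axes, each from 0) in the 3 tumors of the original/B6129SF1, adapted/B6129SF1 and adapted/C57BL/6 groups, with symbols for the replicates and bars for the mean ± SD (n = 3). Ido1 lies at or below 0.0952 FPKM in every original/B6129SF1 tumor and at or above 0.668 FPKM in every adapted tumor, whereas the groups overlap for Kynu and Arg2.

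Ido1, the inducible dioxygenase, was nearly silent in the original/B6129SF1 tumors and detectable in every adapted tumor. It measured 0.0952, 0.0788 and 0.0300 FPKM in the original/B6129SF1 tumors. The adapted/B6129SF1 tumors held 0.702, 1.23 and 1.82 FPKM, and the adapted/C57BL/6 tumors 0.668, 1.11 and 1.31 FPKM. The adapted groups did not overlap with the original/B6129SF1 group and overlapped widely with each other. The mean rose from 0.0680 ± 0.0339 FPKM (SD, n = 3) in the original/B6129SF1 group to 1.25 ± 0.561 FPKM in the adapted/B6129SF1 group, a ratio of means of 18.4 (log2 difference 1.05, SE 0.22, limma adjusted p = 0.025). Against the adapted/C57BL/6 mean of 1.03 ± 0.327 FPKM the ratio was 15.1, and the log2 difference of 0.91 (SE 0.22) passed the adjusted p (0.0449) but not the fold threshold. Between the adapted groups the difference was -0.13, with a 95% interval from -0.634 to 0.364 (limma adjusted p = 0.942).

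The Ido1 ratios are taken against original/B6129SF1 values close to 0. Multiplied by the approximate relative depth of each tumor, they became 0.0952, 0.0950 and 0.0312, so that 2 of them were 3.05 and 3.04 times the third; the number of fragments behind them is unknown. Every tumor with at least 1 FPKM of Ido1 was an adapted one, so it entered the test through the groups in which it is high. The adapted/B6129SF1 call was lost without original/B6129SF1 replicate 1 (limma adjusted p = 0.0741), replicate 2 (0.0556) or replicate 3 (0.0866), and without adapted/B6129SF1 replicate 2 (0.0662) or replicate 3 (0.0562). With a pseudocount of 0.1 the log2 difference of the adapted/C57BL/6 group was 2.72 and passed both thresholds (limma adjusted p = 0.0139). Over both adapted groups, 6 tumors against 3 did not overlap (exact permutation p = 0.0238, the smallest this design allows). The dendritic cell marker Clec9a, which also passed the filter only through adapted tumors, had ratios of means of 15.3 and 13.9 (limma adjusted p = 0.00512 and 0.00449) beside 18.4 and 15.1 for Ido1. Batf3, another such marker, had ratios of 4.01 and 5.25 and was not called in either group (limma adjusted p = 0.105 and 0.0471, the latter with a log2 difference of 0.92). Batf3 also reached 1 FPKM in adapted tumors alone and entered the test through them. Of the other dendritic cell markers tested, Fscn1 was lower in adapted/B6129SF1 (ratio 0.706, limma adjusted p = 0.0326), not past the fold threshold. Itgax, Ccr7 and Zbtb46 had ratios of 1.48, 1.47 and 2.26 there and were not called (limma adjusted p = 0.619, 0.49 and 0.0553). Zbtb46, like Clec9a and Batf3, entered the test through the adapted tumors. Without overlap, 3 of the 6 markers tested lay above the original/B6129SF1 tumors in adapted/B6129SF1, with 13.6% of all genes. In adapted/C57BL/6 it was 5 of the 6, with 14.9% of all genes. Fscn1 lay below the original/B6129SF1 tumors in both groups. The part of dendritic cells in the Ido1 difference was not tested.

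Kynu and Kmo, which act on kynurenine further down the pathway, did not reach 1 FPKM in 3 tumors and were not tested with the other genes. Kynu, the kynureninase, measured 0.0502, 0.0834 and 0.0640 FPKM in the original/B6129SF1 tumors, 0.0468, 0.361 and 0.335 FPKM in the adapted/B6129SF1 tumors and 0.127, 0.0521 and 0.0696 FPKM in the adapted/C57BL/6 tumors. Its groups overlapped in each comparison (exact permutation p = 0.4 and 0.6 against the original/B6129SF1 group). Kmo, the kynurenine 3-monooxygenase, measured 0.462, 0.337 and 0.388 FPKM in the original/B6129SF1 tumors. It measured 0.637, 0.932 and 1.49 FPKM in the adapted/B6129SF1 tumors, all above the original ones (exact permutation p = 0.1). The adapted/C57BL/6 tumors held 0.617, 0.402 and 0.645 FPKM of Kmo, and the lowest lay within the original/B6129SF1 range (exact permutation p = 0.2). When all genes were fitted without a filter, neither passed the threshold in the adapted/B6129SF1 group (limma adjusted p = 0.0919 for Kmo and 0.226 for Kynu).

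Wars, the cytosolic tryptophanyl-tRNA synthetase, which interferon-gamma is also known to induce, was highest in the adapted/C57BL/6 tumors. It measured 28.3, 24.2 and 26.4 FPKM in the original/B6129SF1 tumors, 35.1, 34.8 and 32.6 FPKM in the adapted/B6129SF1 tumors and 53.9, 47.0 and 86.4 FPKM in the adapted/C57BL/6 tumors. The 3 groups did not overlap, in the order original/B6129SF1, adapted/B6129SF1, adapted/C57BL/6. In the adapted/C57BL/6 group Wars rose 2.37 times over the original/B6129SF1 mean (log2 difference 1.17, SE 0.20, limma adjusted p = 0.011). The adapted/B6129SF1 difference of 0.37 (SE 0.20) did not pass the test (limma adjusted p = 0.269). The step from adapted/B6129SF1 to adapted/C57BL/6 was 0.80 (SE 0.20) and did not pass the test (limma adjusted p = 0.532). Its unadjusted 95% interval ran from 0.357 to 1.25. Adapted/C57BL/6 replicate 3 stood highest, and without it the adapted/C57BL/6 difference was 0.91 (limma adjusted p = 0.0153), under the fold threshold.

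Other genes of the tryptophan pathway set Ido1 in context. Of 18 listed, 16 had a row, 7 were tested and 1 rose in each adapted group, which was the same gene, Ido2, the paralog of Ido1. Of all genes tested, 3.22% and 3.09% were called in these groups. Ido2 measured 0.271, 0.125 and 0.259 FPKM in the original/B6129SF1 tumors, 1.67, 1.90 and 1.84 FPKM in the adapted/B6129SF1 tumors and 1.73, 2.11 and 1.15 FPKM in the adapted/C57BL/6 tumors. The adapted groups lay above the original/B6129SF1 group without overlap and overlapped with each other. Like Ido1, Ido2 reached 1 FPKM in adapted tumors alone and entered the test through them. Its log2 differences were 1.20 (SE 0.17, limma adjusted p = 0.00737) and 1.11 (SE 0.17, limma adjusted p = 0.00748). Quantile normalization brought the second to 0.95 and leaving out adapted/C57BL/6 replicate 2 to 0.99, both under the fold threshold. In 8 of the 9 tumors Ido2 exceeded Ido1, by 1.01 to 8.65 times, and adapted/C57BL/6 replicate 3 was the exception at 0.881. The difference of the Ido1 to Ido2 log2 ratio from the original/B6129SF1 group was -0.16 in the adapted/B6129SF1 group and -0.20 in the adapted/C57BL/6 group (exact permutation p = 0.5 for each).

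Tdo2, the dioxygenase of the liver, stayed at or under 0.215 FPKM. Afmid, the formamidase that follows the dioxygenases, measured 5.16, 5.81 and 4.47 FPKM in the original/B6129SF1 tumors and 2.63, 3.62 and 3.09 FPKM in the adapted/B6129SF1 tumors, where it was lower by a log2 difference of -0.58 (limma adjusted p = 0.0396, not past the fold threshold). In the adapted/C57BL/6 tumors Afmid measured 3.46, 4.23 and 3.56 FPKM, again without overlap with the original/B6129SF1 tumors. That difference of -0.37 did not pass the test (limma adjusted p = 0.149). The late enzymes Haao and Qprt did not exceed 1.08 and 1.54 FPKM in any tumor. Ahr, the receptor that kynurenine can engage, averaged 8.58 FPKM in the original/B6129SF1 group and 5.04 FPKM in the adapted/B6129SF1 group (log2 difference -0.69, limma adjusted p = 0.0678), and of its known targets Tiparp lay between 26.0 and 38.8 FPKM, Nqo1 between 3.21 and 11.6 FPKM, Cyp1b1 at or under 6.64 FPKM and Cyp1a1 at or under 0.0436 FPKM.

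Wars was then set beside the other cytosolic aminoacyl-tRNA synthetases. Of the 17 others tested, 0 were called in either adapted group, and their largest adapted/C57BL/6 difference was 0.73 (Cars, the cysteinyl synthetase), against 1.17 for Wars. Nars and Lars, for asparagine and leucine, reached 0.66 and 0.54 in the adapted/C57BL/6 group (limma adjusted p = 0.0296 and 0.0232), below the fold threshold. In the step from adapted/B6129SF1 to adapted/C57BL/6, 16 of the 17 were above 0 with a median of 0.30, beside a median of 0.01 over all genes tested and 0.80 for Wars. The median of the 17 against the original/B6129SF1 group was -0.05 in the adapted/B6129SF1 group and 0.26 in the adapted/C57BL/6 group. Wars2, the mitochondrial tryptophanyl-tRNA synthetase, differed by 0.12 and 0.18 (limma adjusted p = 0.561 and 0.399).

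**Figure D2:**
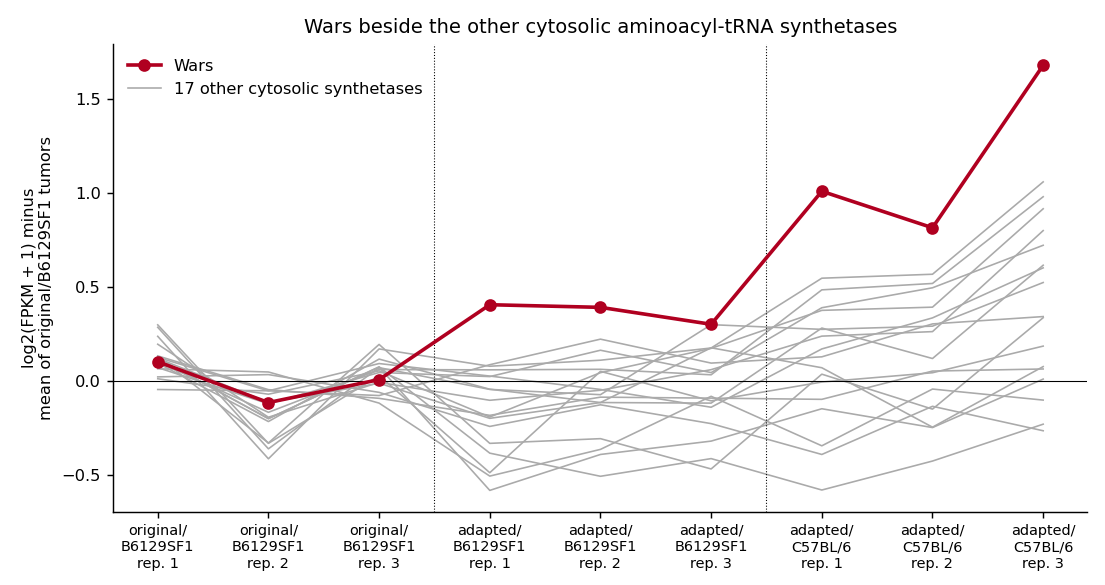
Wars (red) and 17 other cytosolic aminoacyl-tRNA synthetases (grey) in each of the 9 tumors, as log2(FPKM + 1) minus the mean of the original/B6129SF1 tumors. Wars lies above all others in the 3 adapted/C57BL/6 tumors, reaching 1.01, 0.82 and 1.68, and between 0.30 and 0.41 in the adapted/B6129SF1 tumors.

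Arg1, the cytosolic arginase, was abundant in every tumor and varied most among the adapted/B6129SF1 tumors. It measured 232, 254 and 383 FPKM in the original/B6129SF1 tumors. The adapted/B6129SF1 tumors held 629, 104 and 193 FPKM, both the second highest and the lowest value of the series. The adapted/C57BL/6 tumors held 449, 428 and 637 FPKM and lay above the original/B6129SF1 tumors without overlap. The log2 difference from the original/B6129SF1 group was -0.28 in the adapted/B6129SF1 group (SE 0.55, 95% interval -1.53 to 0.981, limma adjusted p = 0.782) and 0.81 in the adapted/C57BL/6 group (95% interval -0.446 to 2.07, limma adjusted p = 0.414). The adapted groups differed by 1.09 (95% interval -0.17 to 2.34, limma adjusted p = 0.821). These intervals are wide enough to hold no difference and a change past the fold threshold alike.

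Arg2, the mitochondrial arginase, was low throughout. It measured 0.887, 0.558 and 1.34 FPKM in the original/B6129SF1 tumors, 0.522, 0.441 and 1.34 FPKM in the adapted/B6129SF1 tumors and 0.692, 1.02 and 0.671 FPKM in the adapted/C57BL/6 tumors, so that all 3 groups overlapped. The differences from the original/B6129SF1 group were -0.14 (95% interval -0.681 to 0.399) and -0.09 (95% interval -0.63 to 0.451), with limma adjusted p of 0.738 and 0.856.

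Nos2, the inducible nitric oxide synthase, was lowest in the original/B6129SF1 tumors, at 1.98, 1.68 and 1.76 FPKM. The adapted/B6129SF1 tumors held 3.96, 2.10 and 2.09 FPKM and the adapted/C57BL/6 tumors 2.53, 5.31 and 5.11 FPKM. Every adapted tumor thus lay above every original/B6129SF1 tumor, while the adapted groups overlapped with each other. The adapted/B6129SF1 difference was 0.37 (SE 0.26, limma adjusted p = 0.401). The adapted/C57BL/6 difference was 0.88 (SE 0.26, 95% interval 0.281 to 1.47, ratio of means 2.39, limma adjusted p = 0.0815) and did not pass the test. It was called, at 1.15, without adapted/C57BL/6 replicate 1 (limma adjusted p = 0.0323), which is 1 of the 2 tumors with skeletal muscle transcripts, and without both of those tumors (limma adjusted p = 0.0252).

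**Figure D3:**
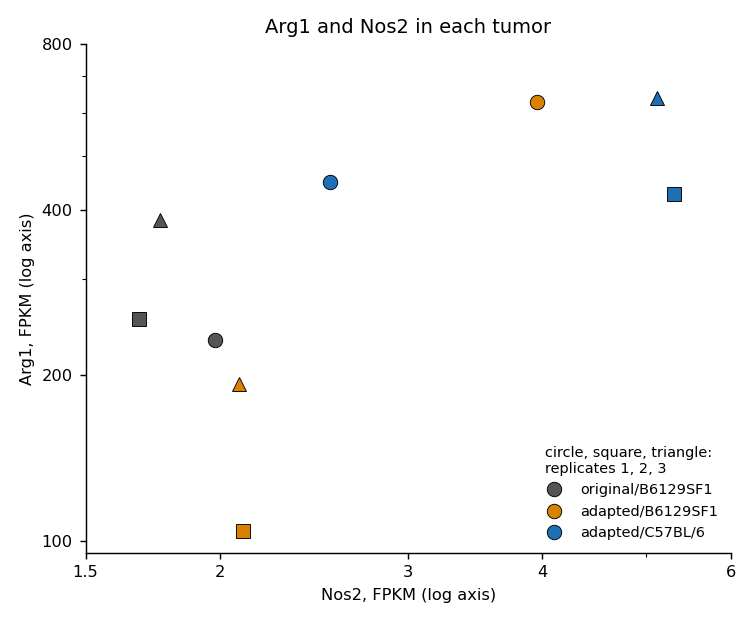
Arg1 FPKM (vertical, log axis) against Nos2 FPKM (horizontal, log axis) in each of the 9 tumors, with colors for the groups and symbols for the replicates. The adapted/B6129SF1 tumors lie farthest apart, from 104 to 629 FPKM of Arg1, and the adapted/C57BL/6 tumors lie above 400 FPKM of Arg1 and above 2.5 FPKM of Nos2.

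Between the transcripts of the enzymes that compete for arginine, Arg1 far exceeded Nos2 in every tumor. There were 117, 151 and 217 FPKM of Arg1 for each FPKM of Nos2 in the original/B6129SF1 tumors, 159, 49.6 and 92.5 in the adapted/B6129SF1 tumors and 177, 80.6 and 125 in the adapted/C57BL/6 tumors. The groups overlapped. The difference of the Nos2 to Arg1 log2 ratio from the original/B6129SF1 group was 0.64 in the adapted/B6129SF1 group (exact permutation p = 0.4) and 0.06 in the adapted/C57BL/6 group (exact permutation p = 0.9), and between the adapted groups it was -0.58 (exact permutation p = 0.4).

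Ass1, argininosuccinate synthase, was higher in the adapted tumors and highest in adapted/C57BL/6. It measured 3.87, 2.04 and 4.82 FPKM in the original/B6129SF1 tumors, 4.43, 9.80 and 10.3 FPKM in the adapted/B6129SF1 tumors and 12.2, 9.27 and 16.7 FPKM in the adapted/C57BL/6 tumors. Adapted/B6129SF1 replicate 1 lay within the original/B6129SF1 range, and all adapted/C57BL/6 tumors lay above it. In the adapted/C57BL/6 group Ass1 rose 3.56 times over the original/B6129SF1 mean (log2 difference 1.60, SE 0.35, limma adjusted p = 0.0306). The adapted/B6129SF1 difference of 0.98 (SE 0.35) did not pass the test (limma adjusted p = 0.114), and the adapted groups differed by 0.62 (95% interval -0.168 to 1.4, limma adjusted p = 0.835). The Ass1 to Arg1 log2 ratio was higher by 0.79 in the adapted/C57BL/6 than in the original/B6129SF1 group (exact permutation p = 0.1).

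The Ass1 call was sensitive to single tumors. In the adapted/C57BL/6 group it was lost without original/B6129SF1 replicate 1 (limma adjusted p = 0.0743), replicate 2 (0.0817) or replicate 3 (0.0574), and without adapted/C57BL/6 replicate 1 (0.0765) or replicate 3 (0.122), with log2 differences from 1.33 to 1.80. In the adapted/B6129SF1 group it was gained, at 1.33, without adapted/B6129SF1 replicate 1 (limma adjusted p = 0.0428). Without both tumors with skeletal muscle transcripts the adapted/C57BL/6 difference was 1.61 (limma adjusted p = 0.0628).

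The rest of the arginine pathway was then counted. Of 31 other genes listed, 28 had a row and 24 were tested; 0 were called in the adapted/B6129SF1 group and 1 in the adapted/C57BL/6 group (higher), where 3.22% and 3.09% of all genes tested were called. It was Slc7a2, a cationic amino acid transporter that brings arginine into macrophages. Slc7a2 measured 1.64, 1.55 and 1.89 FPKM in the original/B6129SF1 tumors, 4.03, 2.27 and 4.56 FPKM in the adapted/B6129SF1 tumors and 5.95, 3.07 and 6.39 FPKM in the adapted/C57BL/6 tumors. Every adapted tumor lay above the original ones, with a log2 difference of 1.14 (SE 0.27, limma adjusted p = 0.0399) in the adapted/C57BL/6 group. That call was lost without original/B6129SF1 replicate 1, 2 or 3 (limma adjusted p = 0.109, 0.097 and 0.0989) and without adapted/C57BL/6 replicate 1 or 3 (0.113 and 0.149). It was also lost without both tumors with skeletal muscle transcripts (0.0901).

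Asl, which completes the step begun by Ass1, lay between 15.5 and 21.3 FPKM in all tumors, with differences of 0.04 and -0.04 from the original/B6129SF1 group (limma adjusted p = 0.863 and 0.894). Cps1, an enzyme of the liver urea cycle, was listed at 0 in every tumor. Of the other nitric oxide synthases, Nos3 of the endothelium lay between 1.88 and 4.22 FPKM and Nos1 at or under 0.782 FPKM. Gch1, which makes the cofactor of nitric oxide synthase, lay between 5.78 and 9.73 FPKM. Odc1, which takes ornithine from arginase into polyamines, averaged 106, 70.2 and 94.8 FPKM in the original/B6129SF1, adapted/B6129SF1 and adapted/C57BL/6 groups (limma adjusted p = 0.211 and 0.842). Of 10 genes that break down phenylalanine and tyrosine, 6 were tested and 0 were called in either group. Tat and Hpd, which act on tyrosine, stayed at or under 0.0557 FPKM.

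**Figure D4:**
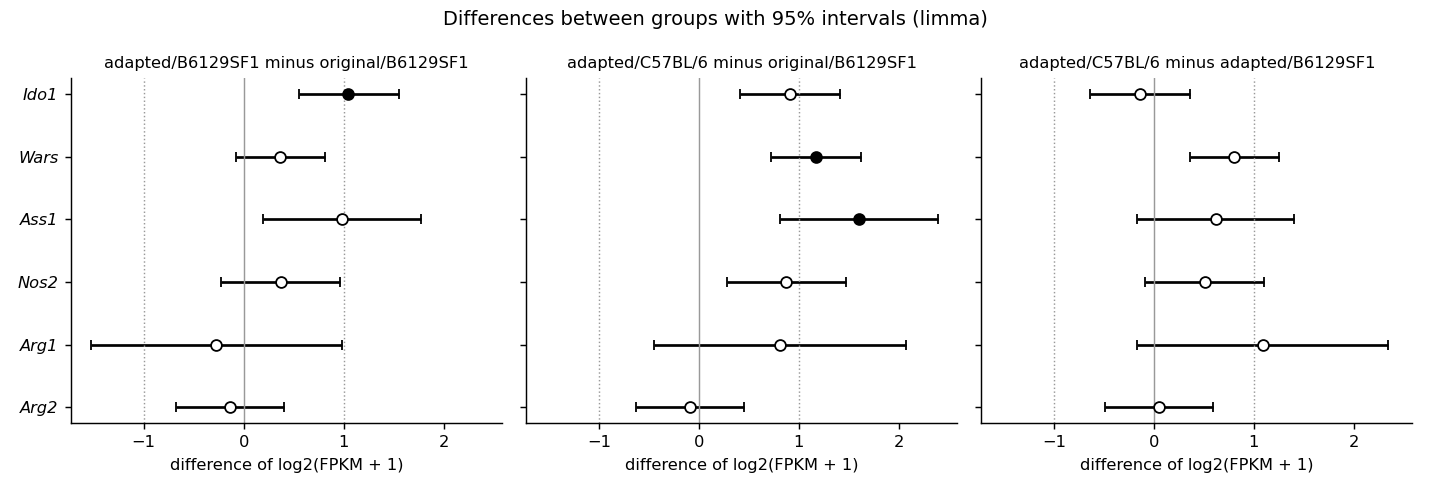
Differences of log2(FPKM + 1) between groups (horizontal) for the 6 enzymes tested, with 95% intervals from limma, not adjusted for the number of genes. Filled points were called and dotted lines mark the fold threshold of 1. Ido1 was called in adapted/B6129SF1 against original/B6129SF1, Wars and Ass1 in adapted/C57BL/6 against original/B6129SF1, and none between the adapted groups.

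Counted over the 6 enzymes tested, 1 was called in adapted/B6129SF1 against original/B6129SF1 (Ido1, higher), where 3.22% of all genes tested were called. That count rests wholly on Ido1, which passed the filter through the adapted tumors. In adapted/C57BL/6 against original/B6129SF1, 2 were called (Wars and Ass1, higher), with 3.09% of all genes. By adjusted p alone there were 3, with 6.75% of all genes. Between adapted/C57BL/6 and adapted/B6129SF1, 0 were called by limma, with 0.0292% of all genes, and 1 (Wars) had an unadjusted p under 0.05, with 6.27% of all genes. For both adapted groups together against original/B6129SF1, 1 was called (Ass1, log2 difference 1.29, limma adjusted p = 0.0275), with 3.39% of all genes. That call was lost without original/B6129SF1 replicate 1, 2 or 3 (limma adjusted p = 0.078, 0.0877 and 0.0535), without adapted/B6129SF1 replicate 2 (0.0531) and without adapted/C57BL/6 replicate 1 or 3 (0.0522 and 0.0607). Ido1 was called there without adapted/B6129SF1 replicate 1 (log2 difference 1.07, limma adjusted p = 0.00745) or adapted/C57BL/6 replicate 1 (1.05, 0.0179).

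Groups lay above the original/B6129SF1 tumors without overlap for 3 of the 6 enzymes in adapted/B6129SF1, with 13.6% of all genes, and for 5 of the 6 in adapted/C57BL/6, with 14.9% of all genes. The exceptions were Arg1, Arg2 and Ass1 in adapted/B6129SF1 and Arg2 in adapted/C57BL/6. The adapted/C57BL/6 tumors lay above the adapted/B6129SF1 tumors without overlap for 1 (Wars), with 6.32% of all genes. The median log2 difference of the 6 was 0.37 in adapted/B6129SF1 and 0.89 in adapted/C57BL/6 against original/B6129SF1, beside -0.03 over all genes tested in each. Ido1 took part in these medians because its adapted tumors brought it past the filter.

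Interferon-gamma signalling, which is known to induce Ido1, Wars and Nos2, was read beside them. Of 9 genes of interferon-gamma signalling, 2 rose in adapted/B6129SF1 and 4 in adapted/C57BL/6, and 0 fell. Of all genes tested, 3.22% and 3.09% were called in these groups. The part of these regulators in the enzyme differences was not tested. Without both tumors with skeletal muscle transcripts, 1 was called in adapted/B6129SF1. Irf1, an interferon-induced transcription factor, rose in adapted/C57BL/6 by 1.46 (SE 0.20, limma adjusted p = 0.00527). It measured 39.7, 30.3 and 30.6 FPKM in the original/B6129SF1 tumors, 42.5, 67.4 and 54.4 FPKM in the adapted/B6129SF1 tumors and 84.8, 82.4 and 117 FPKM in the adapted/C57BL/6 tumors. Irf1, like Wars, thus held 3 groups without overlap in the order original/B6129SF1, adapted/B6129SF1, adapted/C57BL/6. Irf8, a factor of the myeloid lineage, rose by 1.02 (limma adjusted p = 0.0109) and 1.20 (limma adjusted p = 0.00527). The first of these fell under the fold threshold without original/B6129SF1 replicate 1 (0.97), original/B6129SF1 replicate 2 (0.998) or adapted/B6129SF1 replicate 3 (0.98).

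Ifng itself measured 0.216, 0.107 and 0.202 FPKM in the original/B6129SF1 tumors, 0.158, 1.5 and 0.524 FPKM in the adapted/B6129SF1 tumors and 2.71, 1.45 and 2.72 FPKM in the adapted/C57BL/6 tumors. It reached 1 FPKM in adapted tumors alone and so entered the test through them. It rose in adapted/C57BL/6 (log2 difference 1.46, SE 0.29, limma adjusted p = 0.023), a call lost without original/B6129SF1 replicate 1, 2 or 3 (0.0653, 0.0662 and 0.0764) and without adapted/C57BL/6 replicate 1 or 3 (0.0724 and 0.103). Of 10 T and NK cell marker genes, 8 were tested, and 2 rose in adapted/B6129SF1 and 4 in adapted/C57BL/6. Of all genes tested, 3.22% and 3.09% were called in these groups. Cd3d, Cd3e and Cd4 reached 1 FPKM in adapted tumors alone and entered the test through them. Without both tumors with skeletal muscle transcripts the counts of T and NK cell markers that rose were 0 and 2.

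Genes of the alternative activation of macrophages, the setting in which Arg1 is classically induced, gave 0 calls among 7 tested in either group. Mrc1, the mannose receptor, lay between 54.6 and 257 FPKM with all 3 groups overlapping. Retnla reached 4.86 FPKM in adapted/B6129SF1 replicate 3 and at most 1.32 FPKM in the others. Il4 stayed at or under 0.304 FPKM and Il13 at or under 0.0354 FPKM. Mgl2, a lectin of such macrophages, averaged 2.22, 2.64 and 4.27 FPKM in the original/B6129SF1, adapted/B6129SF1 and adapted/C57BL/6 groups (log2 difference 0.80 in the last, limma adjusted p = 0.113).

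Genes known to respond to a shortage of amino acids were read as well. Of 16 genes tested, 3 rose and 1 fell in adapted/C57BL/6, and 0 rose and 1 fell in adapted/B6129SF1, while limma called 0 between the adapted groups. Of all genes tested, 3.09% were called in adapted/C57BL/6 and 3.22% in adapted/B6129SF1. Trib3, a target of Atf4, rose in adapted/C57BL/6 by 1.97 (SE 0.27, limma adjusted p = 0.00515), from 1.59 ± 0.421 to 9.55 ± 3.93 FPKM (SD, n = 3). Asns, asparagine synthetase, rose by 1.40 (SE 0.26, limma adjusted p = 0.0169), a call lost without adapted/C57BL/6 replicate 3 (0.0533). Cth, which makes cysteine, rose by 1.79 (SE 0.41, limma adjusted p = 0.0356). Its call was lost without any of the original/B6129SF1 tumors (0.067, 0.0655 and 0.0565 for replicates 1, 2 and 3) or the adapted/C57BL/6 tumors (0.0753, 0.0548 and 0.132).

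Stc2, a secreted glycoprotein of the same response, fell in adapted/B6129SF1 by 2.15 on the log2 scale (limma adjusted p = 0.00737). In adapted/C57BL/6 it fell by 1.29 (limma adjusted p = 0.0417), a call lost without original/B6129SF1 replicate 1 or 3 (0.125 and 0.127) or any adapted/C57BL/6 tumor (0.104, 0.117 and 0.0834). Between adapted/B6129SF1 and adapted/C57BL/6, 15 of the 16 genes were above 0 with a median of 0.81, beside a median of 0.01 over all genes tested. Without both tumors with skeletal muscle transcripts, 2 of the 16 were called in adapted/C57BL/6.

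**Figure D5:**
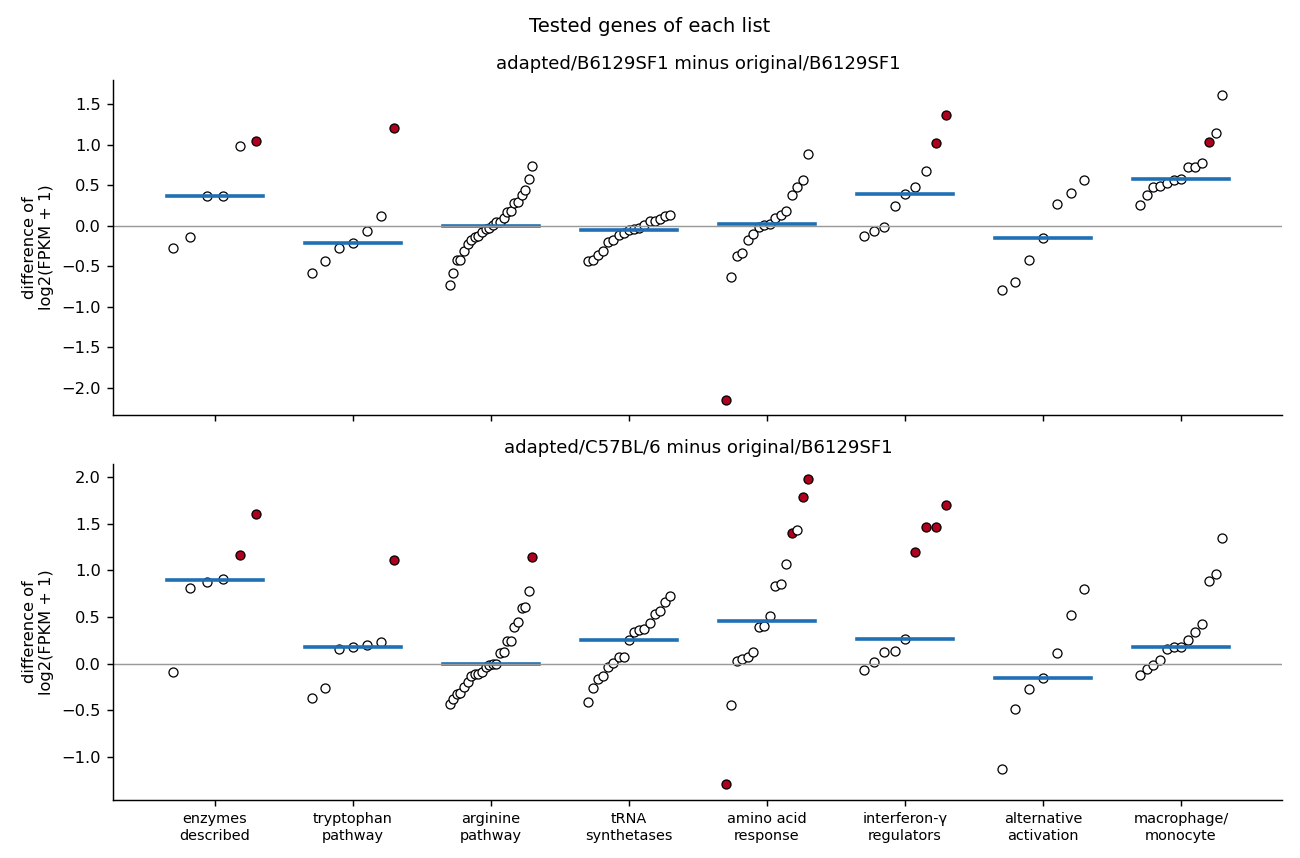
Differences of log2(FPKM + 1) from the original/B6129SF1 group (vertical) for each gene tested in 8 lists, adapted/B6129SF1 above and adapted/C57BL/6 below; red points were called and blue lines are medians. The amino acid response list has 1 called gene in adapted/B6129SF1 and 4 in adapted/C57BL/6, and the interferon-gamma list 2 and 4, while the synthetase list, without Wars, and the alternative activation list have 0.

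Macrophage and monocyte markers were set beside the enzymes. Of 13 tested, 1 rose in adapted/B6129SF1 (Ccr2, which was not called without both tumors with skeletal muscle transcripts) and 0 in adapted/C57BL/6, and their median difference was 0.58 and 0.18. Between the adapted groups it was -0.31, beside 0.56 for the 6 enzymes. With the mean level of these markers as a covariate, the Ido1 difference in adapted/B6129SF1 was 0.98 (limma adjusted p = 0.304), the Wars difference in adapted/C57BL/6 was 0.96 (limma adjusted p = 0.054) and the Ass1 difference in adapted/C57BL/6 was 1.24 (limma adjusted p = 0.118). The Wars difference in adapted/B6129SF1 became -0.07 (limma adjusted p = 0.938). The mean log2 level of these markers ran from 5.95 to 6.04 in the original/B6129SF1 tumors and from 6.61 to 6.9 in the adapted/B6129SF1 tumors. These 2 groups did not overlap in it, so this fit cannot tell the part of macrophages from the group there. In the adapted/C57BL/6 tumors it ran from 5.87 to 6.6. The part of T and NK cells in these differences was not tested.

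The genes nearest to each enzyme were ranked by the root mean square difference of log2(FPKM + 1), each gene centred on its own mean, over the 9 tumors. Ido1 lay closest to Gpx7, H2-D1 and Eif4e3, with differences of 0.163, 0.164 and 0.170 beside its own spread of 0.509. H2-D1 belongs to the MHC class I family, whose members share sequence, so its level is uncertain. Nos2, with a spread of 0.462, lay closest to Irs1, Oasl1 and Eid3 (0.138, 0.155 and 0.165). Arg1 had no near neighbour: with a spread of 0.806, its closest genes were Pdpn, Inhbb and Adam8 at 0.449, 0.458 and 0.466. Kynu, with a spread of 0.142, lay closest to Ybx1, Mrps16 and Calm3 (0.0647, 0.0673 and 0.0721), genes that themselves hardly varied.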

How the data were processed

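RNA of 9 tumors was sequenced. The authors aligned paired-end reads to mm10 with HISAT2 after FastQC, and deposited FPKM made with Cuffnorm for all tumors together; the gene annotation is not given in the sources used here. These values are fragments scaled by transcript length, so absolute depth is unknown and the number of tumors limits the precision. Relative depth was estimated from the spacing of low FPKM values, taking original/B6129SF1 replicate 1 as 1, and lay between 0.959 and 1.35; this is approximate.

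Groups and replicate numbers came from the labels. A gene entered the test when 3 or more tumors held 1 FPKM or more, which 10263 genes did. Their log2(FPKM + 1) values went into a single limma model (version 3.58.1, R 4.3.3, lmFit then eBayes with a trend) of all 3 groups, and p-values were adjusted by Benjamini-Hochberg. Single values were compared with exact two-sided permutation tests. In simulated tumors, 184 of 200 genes changed by a log2 difference of 2 were called in adapted/C57BL/6 against original/B6129SF1 among 10263 genes, with 6 unchanged genes called, and 0 where none was changed. The largest difference of an enzyme in that comparison was 1.60, and changes of that size or smaller were not simulated.

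The enzymes and gene lists were chosen with earlier results of these data known. Named genes are the enzymes, the called genes and the most abundant or textbook genes of each list, and the 3 nearest genes of Ido1, Nos2, Arg1 and Kynu. Cars, Nars, Lars, Mgl2, Tiparp, Nqo1, Cyp1b1, S100a8, S100a9, Csf3r, the comparison of dendritic cell markers with Ido1, and the marker sums without Gzmb were chosen after the values were seen. Tg was also chosen after the values were seen. Il4i1 and genes without a row were not analysed here. Some genes counted in the lists are not reported here by name. Alternatives were other scalings, filters, pseudocounts, variance models, thresholds and samples, a macrophage covariate, a replicate block and each tumor left out in turn. Same-numbered tumors are different animals. Alternatives for genes other than the enzymes were chosen after seeing the data.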

Additional observations from a re-analysis of the deposited data

How the results depend on the processing

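The number of enzymes called was recomputed under each alternative. In adapted/B6129SF1 against original/B6129SF1 (1 as reported) it was 0 with quantile normalization, with a mean of at least 1 FPKM or only the groups compared (in both, Ido1 was not tested), without both tumors with skeletal muscle transcripts and with the macrophage covariate. In adapted/C57BL/6 against original/B6129SF1 (2) it was 1 with no filter and 0 with the macrophage covariate. For both adapted groups (1) it was 0 with no filter, without the tumors with muscle transcripts and with the macrophage covariate, 2 with a pseudocount of 0.1 or 0.5 or with sample weights, and 3 with no fold threshold. With each tumor left out in turn the counts ranged from 0 to 2 in these 3 comparisons, and between the adapted groups the count was 0 throughout. The differences of the Nos2 to Arg1 log2 ratio then ranged from 0.179 to 1.13 (adapted/B6129SF1), from -0.19 to 0.263 (adapted/C57BL/6) and from -1.07 to -0.114 (between the adapted groups). No called difference changed sign, and the cause of these changes was not tested, beyond the loss of Ido1 from the genes tested.

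The replicate numbers did not pair the tumors: the mean correlation of deviations was -0.0976, 0.161 and -0.0124 in the 3 pairs of groups, and not every pair exceeded 0.1. With a replicate block the counts of enzymes called were 1, 2, 0 and 1, and the ratio differences stayed at 0.644, 0.0643 and -0.58. Flipping the signs of the 3 differences between same-numbered tumors gave p = 0.5, 1 and 0.25 (exact sign-flip test). With 3 differences that test cannot go below 0.25, so it cannot establish a difference. The block took the calls of the amino acid response list in adapted/C57BL/6 from 4 to 2 and of the T and NK cell list in adapted/B6129SF1 from 2 to 0. Of the single-enzyme differences recomputed, 451 stayed on their side of the thresholds, 27 lost a call, 15 gained one, and 8, all without a call, changed sign. Quantile normalization moved the split of all called genes in adapted/B6129SF1 from 242 higher and 88 lower to 196 and 104.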
